A study of Mus musculus with 12 samples.

Results

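The genes described here are 10 genes of brain endothelial cells and of the blood-brain barrier, *Cldn5*, *Slco1a4*, *Abcb1a*, *Mfsd2a*, *Slc2a1*, *Flt1*, *Pecam1*, *Cdh5*, *Tek* and *Ly6c1*. They were chosen by name and not by a measured value, though with earlier results of these data known. Each of the 10 was found among the 36047 genes of a table of cortical RNAseq. Capillaries of the brain are lined by endothelial cells that are sealed to each other by tight junctions, which forces most solutes to pass through the cells rather than between them. Transporters in these cells carry glucose, lipids and other nutrients into the brain, while efflux pumps return many drugs and metabolites to the blood. Wnt and vascular endothelial growth factor (VEGF) signals from neighboring neural cells build and maintain these vessels.

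The libraries came from dissected cortex of mice that lack GDE2 (*Gdpd5*), a surface enzyme that cleaves the glycosylphosphatidylinositol anchor of membrane proteins, and from wildtype (WT) mice. The 12 libraries formed 4 groups of 3, each a genotype at an age of 4 or 19 months. *Gde2*KO means a null allele in every cell of the body (*Gde2*-/-), so an effect on vessels cannot be assigned to loss in neurons or in endothelial cells. The study used the 4-month libraries to look for pathways that depend on GDE2 and those of 19 months to look for splicing errors. Values are normalized counts, which are estimated counts per transcript that the authors scaled between libraries, summed here over the transcripts of a gene.

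Libraries of 4 months held 46434135 to 59728927 estimated reads. Those of 19 months held 3707927 to 44604657, and a single read was worth 8.29 normalized counts in *Gde2*KO library A and 4.66 in WT library A, against 0.597 to 0.847 elsewhere. *Gdpd5*, the targeted gene, was at 684, 702 and 1199.5 in WT and at 417, 585 and 403 in *Gde2*KO libraries at 4 months, and at 1065, 1129 and 952 against 441, 456 and 560.1 at 19 months, so its libraries separated by genotype at both ages. The log2 fold change was -0.85 (adjusted p = 0.463) at 4 months and -1.11 (adjusted p = 0.0111) at 19 months by limma. In 4 of 17 other ways of processing, the adjusted p at 19 months was above 0.1 by limma. WT replicates 1 and 2 of 4 months stood apart in markers of brain regions, and what the dissections held was not tested. Over 10 genes of hippocampus, the mean log2 value centered within the age was 1.66 and 1.70 in them and -1.02 to -0.63 in the other 4-month libraries, and over 10 genes of striatum it was -2.26 and -2.42 against 0.42 to 1.83. All 10 endothelial and barrier genes were detected in every library, and no gene of the marker lists for pericytes, smooth muscle, blood and other brain cells was at 0 throughout a group.

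On GRCm38 the junction genes lie at chr16:18776847-18778262 (*Cldn5*, plus strand) and chr8:104101625-104144511 (*Cdh5*, plus strand). The transporters lie at chr6:141805440-141856199 (*Slco1a4*, minus strand), chr5:8660077-8748575 (*Abcb1a*, plus strand), chr4:122946850-122961188 (*Mfsd2a*, minus strand) and chr4:119108711-119137983 (*Slc2a1*, plus strand). The receptors and surface proteins lie at chr5:147561604-147726011 (*Flt1*, minus strand), chr4:94739289-94874976 (*Tek*, plus strand), chr11:106654217-106750628 (*Pecam1*, minus strand) and chr15:75044018-75048830 (*Ly6c1*, minus strand).

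The promoters of 4 of the genes are shown first, since these are the genes whose levels moved most between the ages. *Ly6c1*, *Slc2a1* and *Cldn5* passed both thresholds in an age comparison and *Flt1* passed the adjusted p. The sequences are 200 bases before the transcription start, 5′ to 3′ on the strand of the gene, from RefSeq on GRCm38.p6, at chr16:18776647-18776846 on the plus strand for *Cldn5*, chr4:119108511-119108710 on the plus strand for *Slc2a1*, chr5:147726012-147726211 on the minus strand for *Flt1* and chr15:75048838-75049037 on the minus strand for *Ly6c1*. Capitals mark matches on either strand to any of the motifs searched. These were an ETS-type core with the letters GGAAG, a GC box with CCGCCC, and a TATA box, which reads TATAAA in full. The remaining motifs were a cAMP response element, spelled TGACGTCA on both strands, and a Sox-type core with ACAAAG. No match overlaps another.
*Cldn5*: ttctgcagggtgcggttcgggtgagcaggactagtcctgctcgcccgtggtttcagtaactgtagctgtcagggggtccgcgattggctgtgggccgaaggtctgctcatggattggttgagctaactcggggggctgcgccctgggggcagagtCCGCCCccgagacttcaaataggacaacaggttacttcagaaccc
*Slc2a1*: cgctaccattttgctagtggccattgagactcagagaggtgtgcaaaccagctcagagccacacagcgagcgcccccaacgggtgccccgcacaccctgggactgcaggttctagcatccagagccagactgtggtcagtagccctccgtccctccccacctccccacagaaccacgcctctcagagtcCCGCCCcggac
*Flt1*: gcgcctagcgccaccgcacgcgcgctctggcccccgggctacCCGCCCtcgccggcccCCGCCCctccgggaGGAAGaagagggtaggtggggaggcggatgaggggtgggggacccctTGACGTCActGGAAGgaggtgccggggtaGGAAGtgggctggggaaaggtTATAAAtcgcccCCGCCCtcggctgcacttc
*Ly6c1*: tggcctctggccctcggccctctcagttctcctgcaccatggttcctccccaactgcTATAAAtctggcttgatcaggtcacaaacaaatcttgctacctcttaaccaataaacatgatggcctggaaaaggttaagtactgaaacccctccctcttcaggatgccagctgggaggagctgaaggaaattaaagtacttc

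ETS factors are central to endothelial transcription, and the *Flt1* window held their core 3 times, at 128, 71 and 52 bases before the start. Of 32851 promoters of the same length, 56.8% held this core at least once. The *Flt1* window also held a cAMP response element 81 bases before the start, which 1.47% of promoters held, a TATA box at 31 bases and 3 GC boxes. *Cldn5* and *Slc2a1* held 1 GC box each, at 45 and 11 bases before the start, as did 31.0% of promoters at least once. *Ly6c1* held a TATA box in the distal part of its window, a motif of 9.96% of promoters. The Sox-type core, held by 13.3%, was in none of these 4 windows. A match is a description of the letters and not of binding, which was not measured.

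To compare genes with each other, values per length are needed, and these are TPM (a transcript abundance that is divided by length and was scaled between libraries by the authors). In WT cortex at 4 months the highest level was that of *Slc2a1*, the glucose transporter GLUT1, at 59.0 ± 14.2 TPM (SD, n = 3), followed by *Ly6c1*, a glycosylphosphatidylinositol-anchored surface protein of endothelial and some blood cells, at 54.1 ± 9.09. These genes overlapped in their ranges, 49.6 to 75.4 and 46.5 to 64.2 TPM. *Cldn5*, the main claudin of brain tight junctions, followed at 34.4 ± 5.01 TPM and lay below every *Ly6c1* value. *Slco1a4*, an organic anion transporter, was at 29.4 ± 2.85 TPM and overlapped *Cldn5*. *Mfsd2a*, a lipid transporter that keeps transcytosis low in brain endothelium, was at 19.8 ± 3.16 TPM and below every *Slco1a4* value. *Flt1* (VEGF receptor 1) at 14.5 ± 2.96 TPM, *Pecam1* (the adhesion molecule CD31) at 11.5 ± 2.16 TPM and *Abcb1a* (the efflux pump P-glycoprotein) at 9.52 to 13.6 TPM each overlapped their neighbor in this order. *Tek*, the angiopoietin receptor TIE2, at 5.38 ± 0.138 TPM and *Cdh5*, the VE-cadherin of adherens junctions, at 4.77 ± 0.985 TPM were the lowest and overlapped each other.

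At 19 months the order in WT cortex was nearly kept, but *Ly6c1* at 124 ± 29.8 TPM came before *Slc2a1* at 104 ± 19.6 TPM (SD, n = 3), with overlapping ranges. *Abcb1a* came before *Pecam1* and *Cdh5* before *Tek*. The *Abcb1a* level of 16.7 ± 3.73 TPM includes WT library A, in which a 129-base processed transcript took 42.8% of the TPM of the gene.

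**Figure D1:**
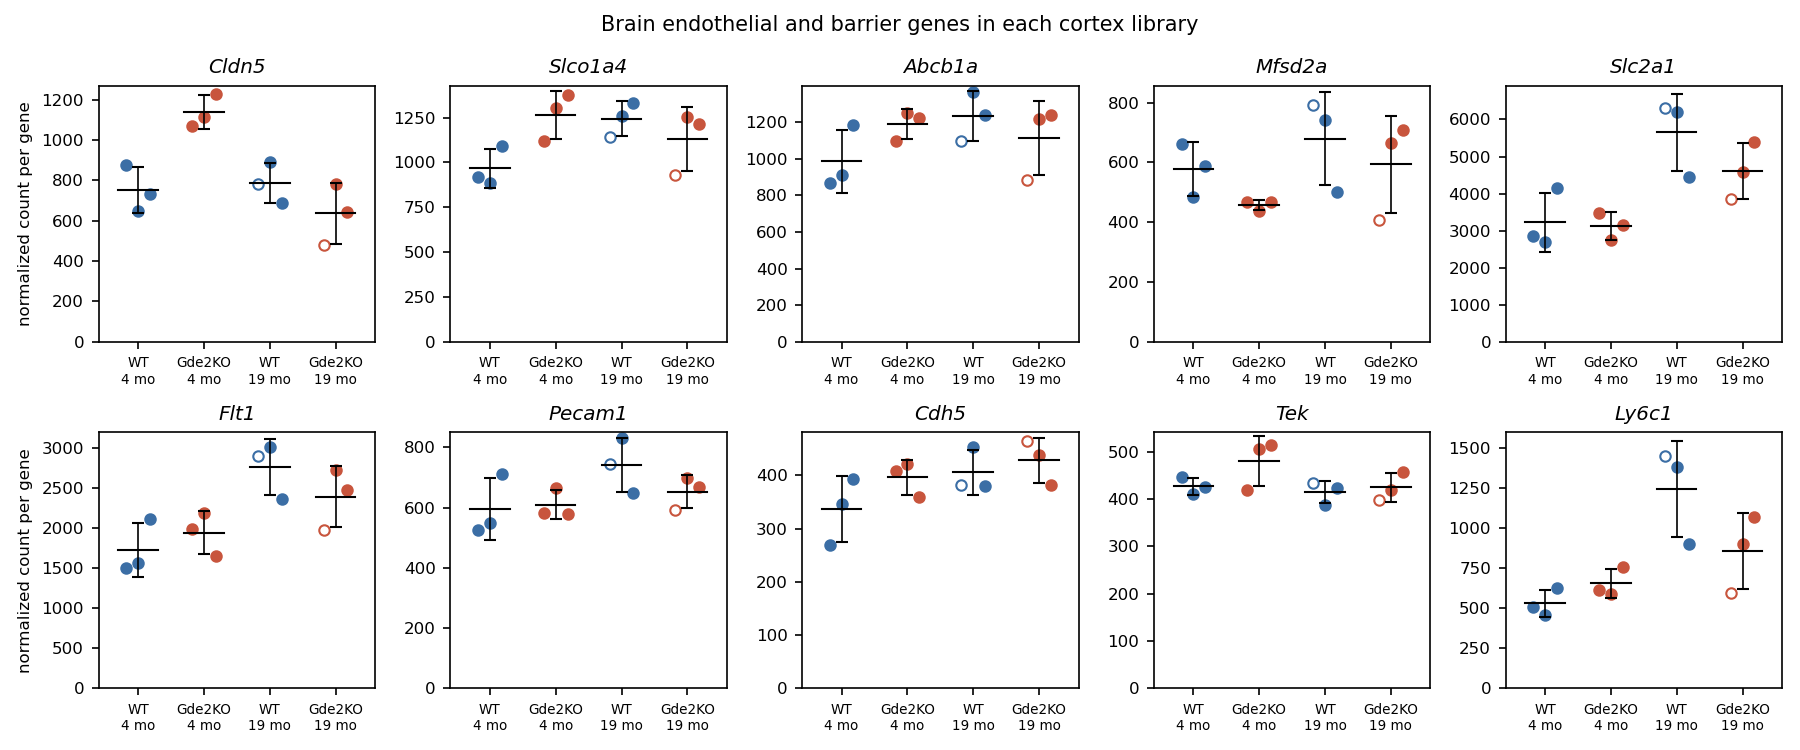
Normalized count of each of the 10 genes in each of the 12 cortex libraries, WT in blue and *Gde2*KO in red at 4 and 19 months. Points are libraries, open points the 19-month libraries of low depth, black lines the group mean and bars the SD (n = 3). *Cldn5* is higher in all 3 *Gde2*KO libraries at 4 months, and *Ly6c1*, *Slc2a1* and *Flt1* are higher in WT at 19 months than at 4.

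The first comparison was *Gde2*KO with WT cortex at 4 months. None of the 10 genes passed the thresholds of an adjusted p under 0.1 and a change above 0.5 on the natural log scale, which is 0.721 on the log2 scale. Of 19035 genes tested, 24 did (0.126%). *Cldn5*, the gene with the largest difference, was at 875, 650.2 and 733 in the WT libraries and at 1069.5, 1116 and 1231 in the *Gde2*KO libraries. Every *Gde2*KO library was higher than every WT library. The ratio of the means was 1.51 and the log2 fold change 0.61 (SE 0.15, 95% confidence interval 0.26 to 0.95), with an unadjusted p of 0.00389 and an adjusted p of 0.463 by limma. *Cldn5* is also on the list of changed genes that the study drew from these 4-month libraries, so its direction is not independent of that list.

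Among the transporters, *Slco1a4* was at 920.5, 886 and 1093 in WT and 1117, 1306 and 1374 in *Gde2*KO libraries at 4 months. Its groups did not overlap, with *Gde2*KO higher, and its log2 fold change was 0.39 (SE 0.14, adjusted p = 0.463 by limma). *Mfsd2a* was at 662, 483 and 587 in WT and 468, 438 and 467 in *Gde2*KO libraries. Here every *Gde2*KO library was lower, with a log2 fold change of -0.32 (SE 0.16, adjusted p = 0.469 by limma). The groups of the other 7 genes overlapped. Thus 3 of the 10 genes did not overlap between genotypes, where 15.4% of all genes tested did not. An exact permutation test of 3 against 3 libraries cannot give a p below 0.1. *Slc2a1* was at 3224 ± 797 in WT and 3126 ± 366 in *Gde2*KO (SD, n = 3), and *Abcb1a* at 987 ± 173 and 1189.9 ± 80.0. The interval of the *Slc2a1* difference ran from -0.46 to 0.41 on the log2 scale.

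Of the receptors and adhesion molecules at 4 months, *Flt1* had a log2 fold change of 0.18, *Tek* 0.16, *Cdh5* 0.25, *Ly6c1* 0.31 and *Pecam1* 0.04. Their SE were 0.14 to 0.18 and none had an unadjusted p under 0.05. Over all 10 genes the median log2 fold change was 0.21, and 8 were above 0, while over all genes tested the median was 0.11 and 63.2% were above 0. Scaling by median ratios took the median of all genes to 0.01 and that of the 10 genes to 0.12, with 7 above 0. WT replicates 1 and 2, the libraries of high hippocampal markers, had the lowest mean levels of the 10 genes, with centered log2 values of -0.15 and -0.23 against 0.05 to 0.12 in the other 4 libraries. Without both of them the median of the 10 genes was 0.01, while *Cldn5* stood at 0.63 on the log2 scale with a single WT library left. Genes of the blood list, mostly hemoglobin, are a sign of blood left in the vessels, and the summed level of its 5 genes was 481 to 974 TPM in WT and 877 to 1661 TPM in *Gde2*KO libraries. The part of regional markers and of blood in these differences was not tested. In bulk tissue, fewer endothelial cells and less RNA per endothelial cell cannot be told apart.

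**Figure D2:**
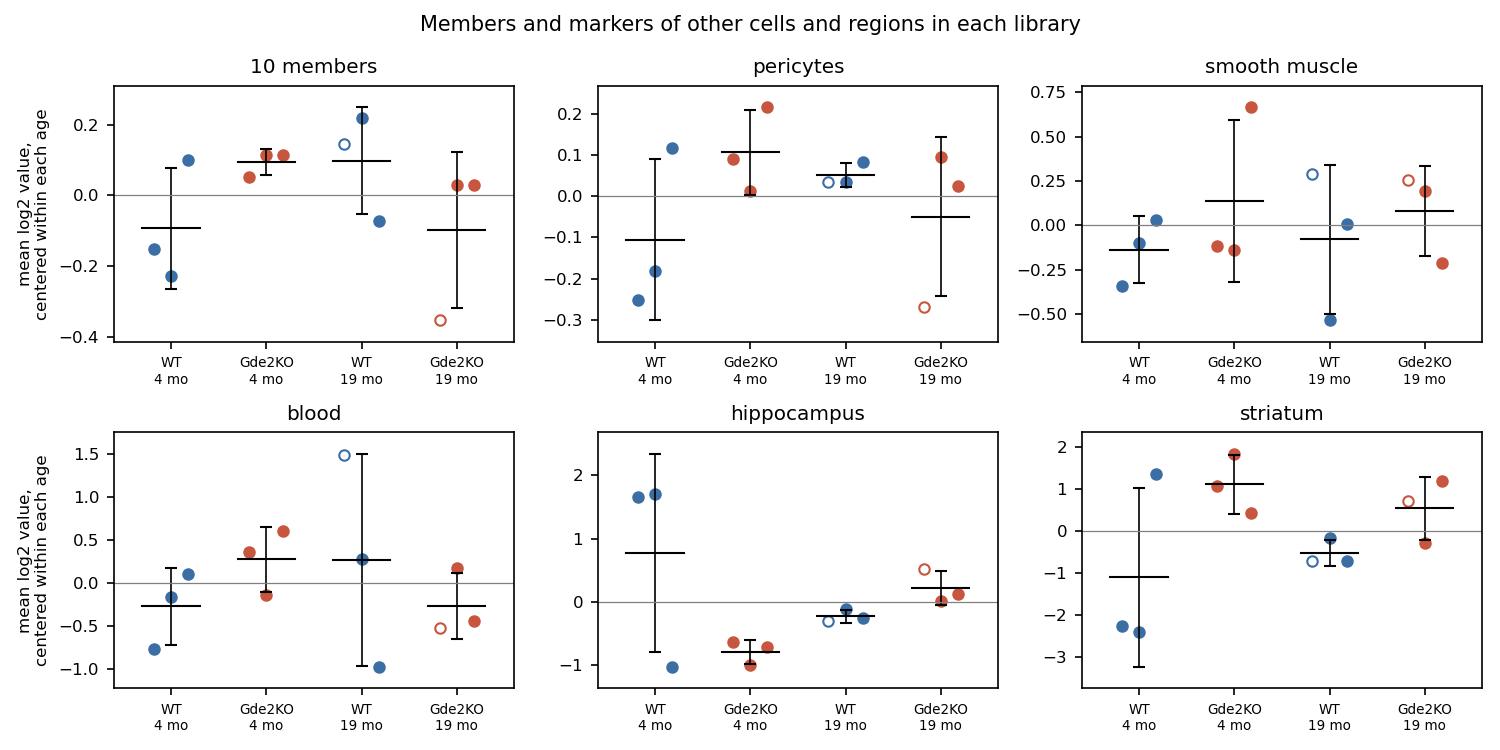
Mean centered log2 value of the 10 genes and of marker lists for pericytes, smooth muscle, blood, hippocampus and striatum, per library, centered over the 6 libraries of an age. Points are libraries, open points those of low depth, black lines the mean and bars the SD (n = 3). The 10 genes are lowest at 4 months in WT replicates 1 and 2, the libraries of high hippocampal and low striatal markers, and lowest at 19 months in *Gde2*KO library A.

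At 19 months the same comparison gave no call among the 10 genes, where 0.0969% of 18583 genes were called. None of the 10 separated by genotype, against 14.2% of all genes. *Ly6c1* differed most, at 1449, 1378 and 901 in WT and 597, 899.5 and 1067 in *Gde2*KO libraries. WT libraries A and B were above all of the *Gde2*KO libraries, while WT library C lay within their range. The log2 fold change was -0.55 (SE 0.24, 95% confidence interval -1.09 to -0.01, adjusted p = 0.711 by limma). It was -0.31 without *Gde2*KO library A and -0.19 without both libraries of low depth. *Ly6c1* shares a family of near-identical copies with *Ly6c2*, so its estimated counts depend on how reads were divided between them, and *Ly6c2* was at 109, 86.9 and 46.0 in WT and 8.32, 43.7 and 46.7 in *Gde2*KO libraries at this age, the value of *Gde2*KO library A being about 1 read.

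*Cldn5* at 19 months was at 783, 892 and 689.9 in WT and 481, 783 and 646 in *Gde2*KO libraries. These groups overlapped, with a log2 fold change of -0.33 (SE 0.17, adjusted p = 0.731 by limma). *Slc2a1* was at 6299, 6199.6 and 4450.3 in WT and 3856, 4582 and 5389.6 in *Gde2*KO libraries, also overlapping, with a log2 fold change of -0.29 (SE 0.15). The median over the 10 genes was -0.19, with 2 above 0 (*Cdh5* and *Tek*), against -0.02 over all genes, of which 44.6% were above 0. *Gde2*KO library A, the library of lowest depth, held the lowest value of its group for 9 of the 10 genes. Without it the median was -0.04 and 4 genes were above 0.

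The change of the genotype difference with age was tested as an interaction over all 12 libraries. None of the 10 genes passed an adjusted p of 0.1, and 0.048% of 18731 genes did. *Cldn5* had an interaction of -0.93 on the log2 scale (SE 0.25, 95% confidence interval -1.47 to -0.40, unadjusted p = 0.00251, adjusted p = 0.368 by limma). For *Ly6c1* it was -0.86 (SE 0.32) and for *Slco1a4* -0.53 (SE 0.19), both with an adjusted p of 0.368 by limma. These 3 had an unadjusted p under 0.05. The interaction was below 0 for 9 of the 10 genes, all but *Mfsd2a*, with a median of -0.33. Over all genes the median was -0.15, with 34.8% above 0. Without WT replicates 1 and 2 of 4 months the median of the 10 genes was -0.11, with 4 above 0, against -0.15 over all genes, and none of the 10 was called. With quantile normalization it was -0.21 with 3 above 0, and all genes had a median near 0. Leaving out WT replicate 3 of 4 months called *Cldn5* and *Slco1a4*, with 2029 genes called in all. That replicate is the WT library of 4 months whose regional markers resembled the *Gde2*KO libraries.

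**Figure D3:**
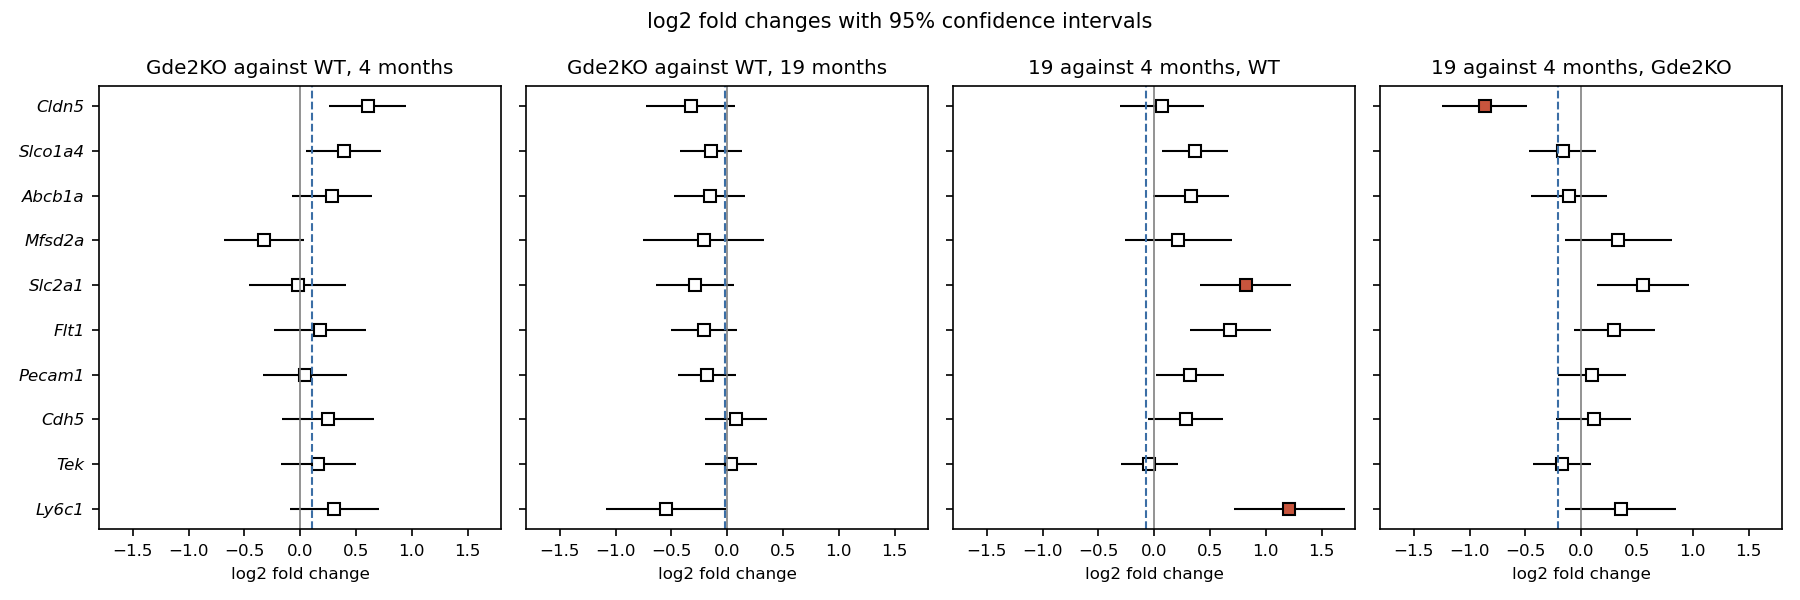
log2 fold change of each of the 10 genes in 4 comparisons by limma, with bars for the 95% confidence interval (n = 3 per group). Filled squares passed both thresholds, the gray line is at 0 and the dashed blue line is at the median of all genes tested. Filled squares are *Slc2a1* and *Ly6c1*, higher with age in WT, and *Cldn5*, lower with age in *Gde2*KO.

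The ages were then compared within each genotype. The labels do not say whether libraries of both ages were prepared together, so age and preparation cannot be told apart. In WT cortex 2 of the 10 genes rose from 4 to 19 months, and none fell, where 13.7% of 18731 genes were called in either direction. *Ly6c1* went from 508, 457 and 625 to 1449, 1378 and 901. All 19-month libraries were above all 4-month libraries, although library C was well below A and B. The ratio of the means was 2.35 and the log2 fold change 1.21 (SE 0.23, adjusted p = 0.00563 by limma).

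*Slc2a1* went from 2846, 2686 and 4139 in the WT libraries of 4 months to 6299, 6199.6 and 4450.3 in those of 19 months. The ages did not overlap, but WT replicate 3 of 4 months was close to library C of 19 months. The ratio was 1.75 and the log2 fold change 0.82 (SE 0.19, adjusted p = 0.0133 by limma). GLUT1 is also made by astrocytes and by cells of the blood, so its level in cortex is not of endothelium alone. Within a library, the ratio of *Slc2a1* to *Pecam1* on the TPM scale was 5.09 ± 0.373 at 4 months and 7.79 ± 0.841 at 19 months in WT (SD, n = 3), and that of *Ly6c1* to *Pecam1* was 4.71 ± 0.417 and 9.27 ± 1.49.

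*Flt1*, at 1495, 1564 and 2115 in the WT libraries of 4 months and 2899, 3005 and 2355 in those of 19 months, separated by age. Its log2 fold change of 0.68 (SE 0.17, adjusted p = 0.0169 by limma) fell short of the fold threshold. *Slco1a4* also separated, with a log2 fold change of 0.37 (SE 0.14, adjusted p = 0.0811 by limma). In all, 4 of the 10 genes did not overlap between the ages in WT, against 46% of all genes. *Cldn5* at 753 ± 114 and 788 ± 101, *Tek* at 427 ± 17.9 and 415 ± 23.8 and *Mfsd2a* at 578 ± 90.0 and 679 ± 155 (SD, n = 3) had adjusted p above 0.5 by limma. The median over the 10 genes was 0.33, with 9 above 0, against -0.07 over all genes, of which 43.75% were above 0. Without WT replicates 1 and 2 of 4 months the median of the 10 genes was 0.14.

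Neither call in WT was made without the libraries of high hippocampal markers, but calls over all genes fell in that fit as well. Without WT replicates 1 and 2 of 4 months, *Ly6c1* had a log2 fold change of 0.96 (adjusted p = 0.198 by limma) and *Slc2a1* 0.43 (adjusted p = 0.431), with 1 WT library of 4 months left, which was assumed to vary like the other groups. Without replicate 2 alone, *Ly6c1* was the only 1 of the 10 called, *Slc2a1* being at 0.70. Smooth muscle and blood markers rose in the same comparison. All 5 smooth muscle genes were called, with summed levels of 24.5 to 30.9 TPM at 4 months and 45.2 to 70.3 TPM at 19 months, and 4 of 5 hemoglobin and other blood genes, with sums of 481 to 974 TPM and 882 to 4805 TPM. Of 11 pericyte genes 1 rose, with sums of 109 to 140 TPM and 148 to 155 TPM. Without WT replicates 1 and 2 of 4 months, 1 smooth muscle gene (*Myh11*) and no blood or pericyte gene was called, and without both libraries of low depth 1 blood gene (*Hba-a1*) was. The calls of *Hba-a2*, *Hbb-bt* and *Hbb-bs* were each lost without WT library A of 19 months alone and without WT replicate 1 of 4 months alone. The part of these cells in the higher levels was not tested.

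In *Gde2*KO cortex the 1 gene of the 10 that passed was *Cldn5*, which fell, where 11.9% of genes were called in either direction. It went from 1069.5, 1116 and 1231 at 4 months to 481, 783 and 646 at 19 months. All 19-month libraries were below all 4-month libraries, and library A, of low depth, was the lowest. The ratio was 0.559 and the log2 fold change -0.86 (SE 0.17, adjusted p = 0.00946 by limma). The median of all genes in this comparison was -0.21 and of the 2224 calls 478 were higher and 1746 lower. With quantile normalization the median was near 0, the split was 893 higher and 924 lower, and *Cldn5* stood at -0.67 (adjusted p = 0.0168 by limma), under the fold threshold. Without library A it was at -0.68 (adjusted p = 0.0244 by limma), also under that threshold. The 10 genes of striatum were all lower at 19 months in the same comparison, with a median of -1.97 on the log2 scale and 3 called lower (*Tac1*, *Gpr6* and *Penk*). Their summed level was 1149 to 2936 TPM in the *Gde2*KO libraries of 4 months and 342 to 769 TPM in those of 19 months. The part of this difference in that of *Cldn5* was not tested.

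*Slc2a1* in *Gde2*KO cortex went from 3486, 2754 and 3139 to 3856, 4582 and 5389.6, all higher at 19 months, with a log2 fold change of 0.55 (SE 0.19, adjusted p = 0.0547 by limma) that was under the fold threshold. Thus 2 of the 10 genes did not overlap between the ages in *Gde2*KO, against 41.2% of all genes. *Ly6c1* went from 612, 591 and 758 to 597, 899.5 and 1067, with library A within the range of 4 months and a log2 fold change of 0.35 (SE 0.23, adjusted p = 0.275 by limma). *Flt1* had 0.30 (SE 0.17). The median of the 10 genes was 0.10, with 6 above 0, against -0.21 over all genes, of which 32.8% were above 0. It was 0.31 with 9 above 0 under quantile normalization and 0.27 with 7 above 0 under median-ratio scaling, where all genes had medians of -0.01 and -0.05. That *Ly6c1* passed in WT and not in *Gde2*KO does not show a difference between genotypes, since its interaction had an adjusted p of 0.368 by limma.

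Other genes of the vessel wall were read from hand-written lists. No gene of the vascular lists was called between genotypes at either age or in the interaction. Among ligands and their partners, *Vegfa*, the main VEGF, was at 1585, 1659 and 2161 in WT and 2187, 2677 and 2168 in *Gde2*KO libraries at 4 months. All *Gde2*KO libraries were higher, although WT replicate 3 came close to *Gde2*KO replicate 3. At 19 months it was at 2778, 2613 and 2412 and 1604, 2248 and 2208, all lower in *Gde2*KO. Its log2 fold changes were 0.39 (SE 0.16, adjusted p = 0.463) and -0.38 (SE 0.13, adjusted p = 0.647) by limma. *Kdr*, VEGF receptor 2, overlapped at both ages, at -0.04 and 0.32.

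*Wnt7a* and *Wnt7b*, the neural ligands that drive barrier formation, had log2 fold changes of 0.04 and -0.38 at 4 months and 0.31 and 0.53 at 19 months in *Gde2*KO against WT. At 4 months *Wnt7b* was at 1928, 1670.0 and 863 in WT and 1264, 849 and 1178 in *Gde2*KO libraries, so that only WT replicates 1 and 2, those of high hippocampal markers, were above the *Gde2*KO libraries and WT replicate 3 was near the lowest of them. Their co-receptor *Adgra2* was close to 0 at 4 months and at 0.05 at 19 months, and the receptor *Fzd4* at -0.20 and 0.03. *Ocln*, the tight junction protein occludin, was at -0.17 and -0.10, the efflux pumps *Abcg2* at 0.29 and 0.01 and *Abcb1b*, a close copy of *Abcb1a*, at -0.14 and -0.30, and the pericyte receptor *Pdgfrb* at 0.05 and 0.17. *Plvap*, a diaphragm protein that brain capillaries lose as the barrier matures, was at 282, 241 and 207 in WT and 417, 380.1 and 637 in *Gde2*KO libraries at 4 months. All *Gde2*KO values were higher, with a log2 fold change of 0.95 (SE 0.23, adjusted p = 0.463 by limma). At 19 months *Plvap* overlapped, at 0.21, and the caveolar coat protein *Cav1* was at -0.07 and -0.18.

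With age, 13.7% of all genes were called in WT and 11.9% in *Gde2*KO, and the lists of the vessel wall are set against these shares. Of 25 endothelial identity genes, 7 rose and 1 fell in WT, and 3 rose and 1 fell in *Gde2*KO, the latter a share near that of all genes. *Vwf*, the von Willebrand factor that endothelial cells store for clotting, went from 403, 425 and 603 to 1972, 2322 and 1684 in WT and from 538, 705 and 455 to 746, 1790.3 and 1879 in *Gde2*KO. Every 19-month library was above every 4-month library of its genotype, and *Gde2*KO library A was the lowest of its age. The log2 fold changes were 2.07 (SE 0.31, adjusted p = 0.00166) and 1.29 (SE 0.31, adjusted p = 0.0172) by limma. With TPM the call of *Vwf* in *Gde2*KO was lost, at 0.73 (adjusted p = 0.2773 by limma). *Sox17*, an arterial endothelial factor, rose by 0.93 and 0.78 on the log2 scale, and *Podxl*, a sialomucin of the luminal surface, by 1.19 in WT. *Ly6a*, a relative of *Ly6c1*, rose by 1.66 in WT, and *Sox18* rose by 0.77 in each genotype. *Itm2a* was the gene that fell, at -0.74 and -1.08.

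Of the 8 genes of activated endothelium, *Lrg1*, *Lcn2* and *Icam1* rose in WT and *Lrg1* and *Lcn2* in *Gde2*KO, and none fell. *Sele* and *Selp* were also called higher in both genotypes. In *Gde2*KO they could be tested in only 15 alternatives, against 23 for *Lrg1*. Between genotypes at 4 months, 6 of the 8 were tested. *Sele*, the E-selectin that inflamed endothelium displays to leukocytes, was at 0.721, 0 and 0 in WT and 0, 0.687 and 0.690 in *Gde2*KO libraries at 4 months, that is at 0 or 1 estimated read. At 19 months it was at 46.6, 48.3 and 38.9 in WT and 8.29, 23.9 and 23.4 in *Gde2*KO libraries, the value of *Gde2*KO library A being again 1 read. A gene needed 5 normalized counts in 47% of libraries to be tested, which *Sele* reached only through those of 19 months. Its direction with age was thus set by that rule. *Selp*, tested in as few alternatives, is likewise left out of the genes said to rise. *Lrg1*, a secreted glycoprotein of inflamed vessels, rose from 36.8, 28.4 and 53.7 to 401, 405 and 190.3 in WT, by 3.02 on the log2 scale (SE 0.42, adjusted p = 0.00102 by limma), and by 1.51 (SE 0.42) in *Gde2*KO. *Lcn2*, lipocalin 2, spread widely at 19 months, at 401, 431 and 51.2 in WT and 16.6, 84.3 and 229 in *Gde2*KO, from 4.23 to 7.76 and 8.94 to 11.3 at 4 months. Astrocytes and immune cells make *Lcn2* as well. Without WT replicates 1 and 2 of 4 months, 2 of the 8 genes (*Sele* and *Lrg1*) and 5 of the 25 identity genes (*Ly6a*, *Podxl*, *Sox18*, *Vwf* and *Sox17*) were called in WT, where 517 genes of all were. Without both libraries of low depth, 4 of 6 tested genes of activated endothelium and 6 of 25 identity genes were called in WT, against 13% of all genes. *Sele* was not tested in that fit.

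Of 7 genes of caveolae and leaky vessels, *Cavin1*, a caveolar coat protein, rose in WT by 1.05 (SE 0.11, adjusted p = 1.88e-04 by limma), as did *Plvap* by 0.76, and none was called in *Gde2*KO. Of 12 junction proteins none was called with age in either genotype, and of 22 other barrier transporters *Abcb1b* alone was, in WT, at 0.73. That call was lost in 4 of 23 alternatives. *Abcb1b* was at 0.35 with TPM (adjusted p = 0.2115 by limma) and at 0.54 without WT replicate 3 of 4 months. Among 17 tested genes of VEGF and angiopoietin signaling, 2 rose and 3 fell in each genotype. *Esm1*, a secreted product of endothelial tip cells, rose from 7.93, 17.5 and 10.5 to 97.8, 97.4 and 67.9 in WT and from 12.7 ± 2.79 to 84.7 ± 27.8 (SD, n = 3) in *Gde2*KO. *Flt4* (VEGF receptor 3) rose by 0.75 and 0.76, while *Angpt1*, a ligand of TIE2, fell by 1.79 and 0.95 and *Nrp2*, a VEGF co-receptor that neurons also make, fell by 1.49 and 0.74 on the log2 scale. *Dll4*, a Notch ligand of arterial and tip cells, fell in *Gde2*KO, at -1.22 (SE 0.24, adjusted p = 0.00843 by limma). Of 20 genes of Wnt signaling at the barrier, *Wnt7a* and *Wnt7b* fell in WT, at -1.04 and -1.15, and *Wnt7a* and *Ndp* (norrin, a ligand of *Fzd4*) in *Gde2*KO, at -0.77 and -0.87. The calls of *Wnt7a*, *Wnt7b*, *Angpt1*, *Flt4*, *Plvap*, *Lcn2* and *Icam1* in WT were lost without WT replicates 1 and 2 of 4 months. In that fit *Esm1* and *Nrp2* were the called genes of the VEGF list and *Cavin1* that of the caveolar list. The calls of *Plvap* and *Flt4* in WT were also lost without WT library B of 19 months alone. In *Gde2*KO, the calls of *Wnt7a*, *Ndp*, *Nrp2* and *Flt4* were each lost without library A of 19 months and without replicate 3 of 4 months, and those of *Wnt7a*, *Ndp* and *Nrp2* also under quantile normalization and median-ratio scaling. Those of *Sox17* and *Lcn2* were lost without replicate 3 of 4 months, and that of *Sox18* without replicate 1. The calls among junction proteins, barrier transporters, Wnt genes and pericyte genes were at shares below those of all genes in both genotypes.

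**Figure D4:**
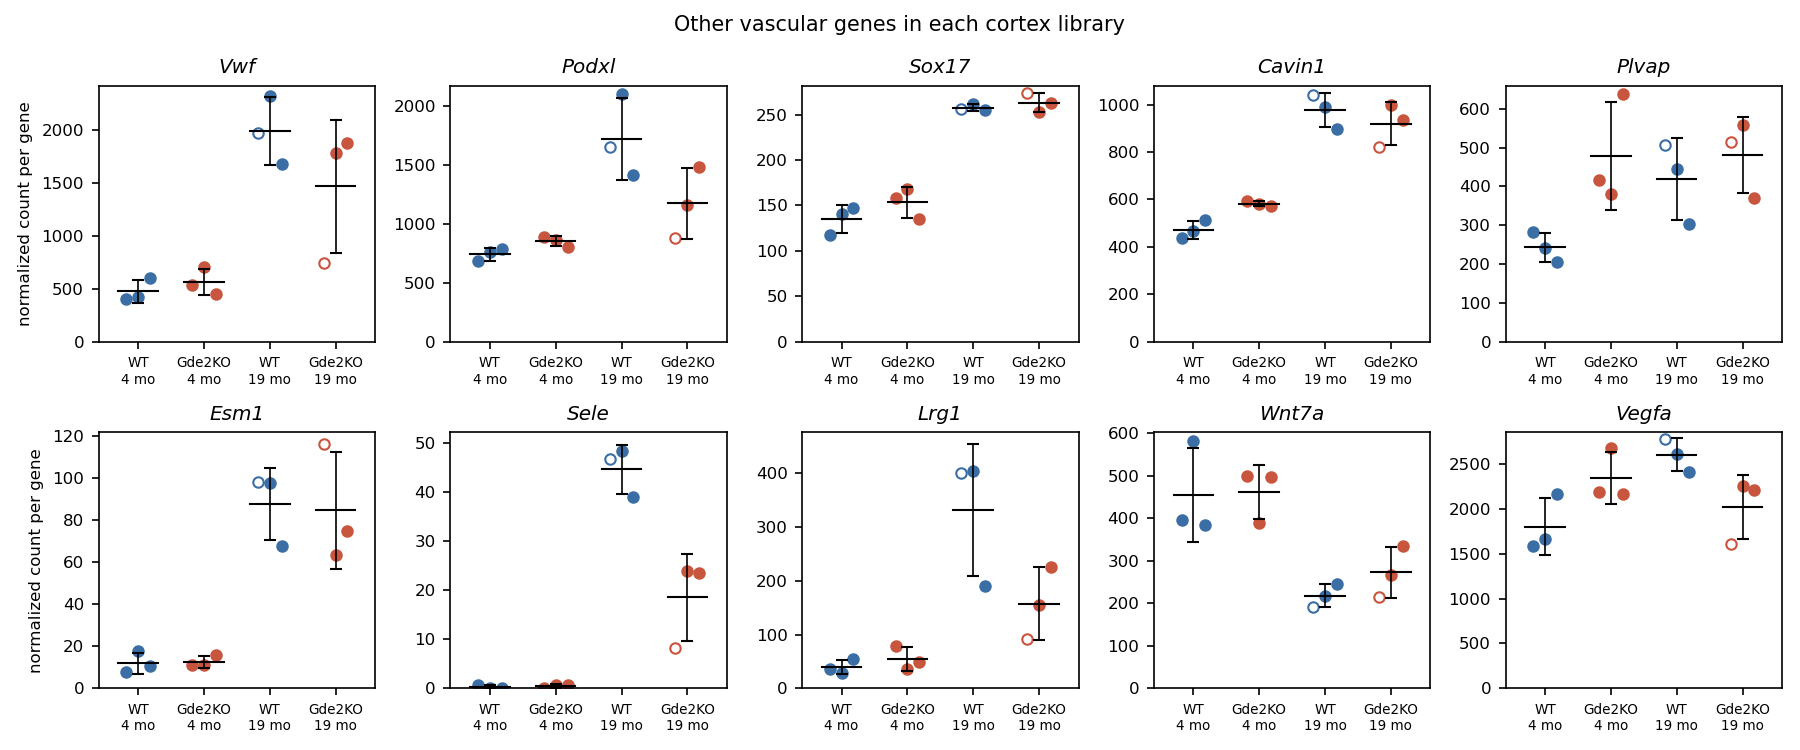
Normalized count of 10 other vascular genes in each library, WT in blue and *Gde2*KO in red. Points are libraries, open points those of low depth, black lines the mean and bars the SD (n = 3). *Vwf*, *Sox17*, *Cavin1*, *Esm1*, *Sele* and *Lrg1* lie higher at 19 than at 4 months in both genotypes and *Wnt7a* lies lower.

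Transcript usage was compared between genotypes for those members that had at least 2 transcripts averaging 5 normalized counts. These were 8 genes at 4 months and 7 at 19 months, and none passed an adjusted p of 0.1 with a shift above 10 percentage points, where 0.997% of genes did at 4 months and 0.171% at 19 months. *Slc2a1* was read by library. Its transcript of the full coding sequence (ENSMUST00000030398.9, 10 exons, 492 codons) made up 89.3%, 88.6% and 92.3% of the TPM of the gene in WT and 84.2%, 85.0% and 75.4% in *Gde2*KO libraries at 4 months, so all *Gde2*KO libraries were lower. At 19 months it made up 80.8%, 84.3% and 85.6% in WT and 87.1%, 90.9% and 92.5% in *Gde2*KO libraries, all higher in *Gde2*KO.

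The rest of *Slc2a1* was mostly a transcript annotated for nonsense-mediated decay (ENSMUST00000174372.2, 173 codons), at 7.20% ± 1.51 in WT and 15.2% ± 7.25 in *Gde2*KO at 4 months and 15.0% ± 3.67 and 7.39% ± 3.04 at 19 months (SD, n = 3). Its groups also separated in opposite directions. The adjusted p of the gene by diffSplice in limma was 0.55 at 4 months and 0.979 at 19 months, and at 4 months it ranged from 0.0483 to 0.948 over the alternatives, passing only without *Gde2*KO replicate 2. *Slc2a1* was singled out after its values were seen, and how many transcripts of all genes separated in this way was not counted.

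*Flt1* is made as a full-length receptor and as shorter forms that lack the membrane and kinase parts and bind VEGF outside the cell. The transcript of 30 exons and 1333 codons (ENSMUST00000031653.11) held 62.2% ± 1.53 of the TPM of the gene in WT and 57.5% ± 3.63 in *Gde2*KO at 4 months and 59.5% ± 3.25 and 53.8% ± 6.66 at 19 months (SD, n = 3). A transcript of 13 exons and 688 codons (ENSMUST00000110529.5), which ends within the gene and is of the soluble kind by its length, held 33.0% ± 0.888 and 33.5% ± 1.85 at 4 months and 37.2% ± 1.01 and 41.3% ± 4.34 at 19 months. By genotype, the 688-codon form overlapped at both ages. Every library of 19 months held a larger share of it than every library of 4 months, 36.3%, 38.3% and 37.0% in WT and 45.9%, 40.7% and 37.2% in *Gde2*KO against 32.1%, 33.2% and 33.8% and 33.4%, 35.5% and 31.8%. No test of usage was run between the ages, and how many transcripts of all genes separated by age in their shares was not counted. In their levels, 46% of all genes in WT and 41.2% in *Gde2*KO did not overlap between the ages.

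Of the other members, *Cldn5* has 1 transcript in 1 exon (218 codons), and *Cdh5* (784 codons) and *Abcb1a* (1276 codons) each had a main transcript at 99.7% and 94.6% of TPM on average. *Pecam1* was spread over several transcripts, led by those of 697 and 727 codons at 29.6% and 24.7%, and the 2 main transcripts of *Ly6c1* have 131 codons each. *Slco1a4* was split between a 622-base transcript (48.0%) and the one of 670 codons (43.1%) on the TPM scale, although the second held 938 of its normalized counts on average and the first 104, since TPM divides by length.

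**Figure D5:**
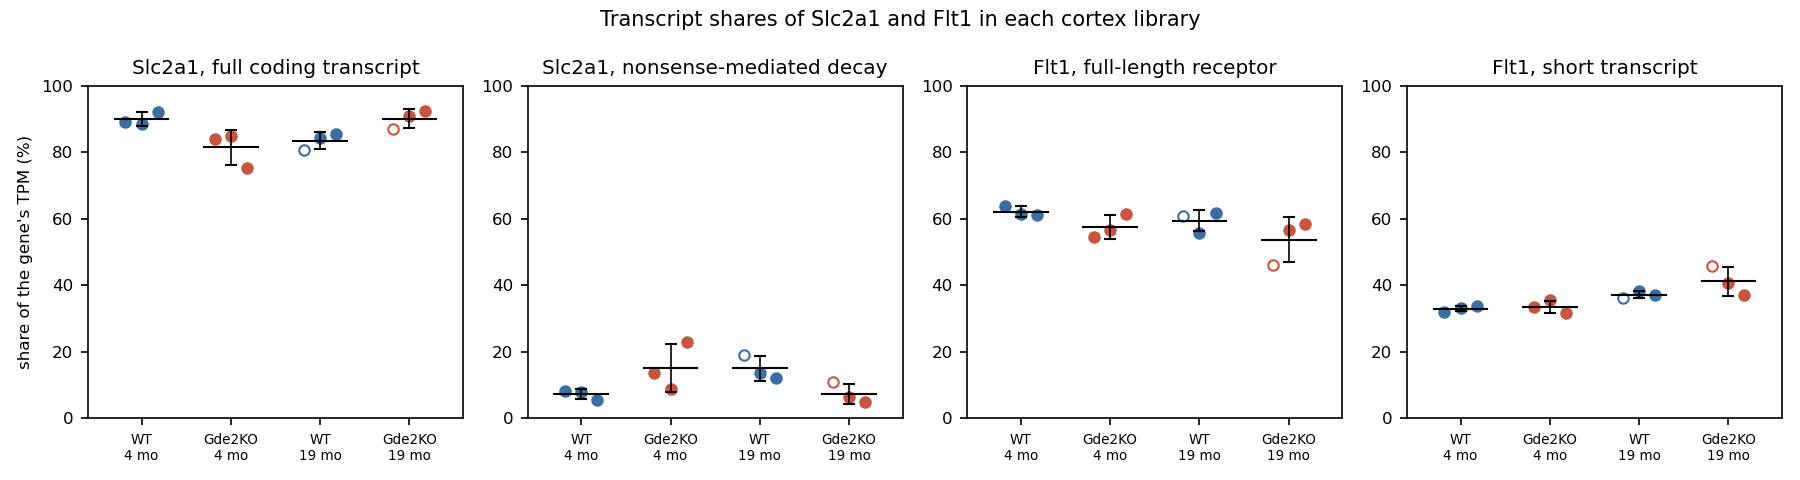
Share of the TPM of *Slc2a1* and of *Flt1* held by their 2 main transcripts in each library, in percent, WT in blue and *Gde2*KO in red. Points are libraries, open points those of low depth, black lines the mean and bars the SD (n = 3). The share of the full coding *Slc2a1* transcript is lower in *Gde2*KO at 4 months and higher at 19 months, and the short *Flt1* share is higher in both genotypes at 19 months.

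The members varied together within an age. With log2 values centered on the 6 libraries of each age, 41 of 45 pairs of members had a correlation above 0 over the 12 libraries, with a median r of 0.49. The highest was 0.917 for *Flt1* and *Pecam1* and the lowest -0.474 for *Mfsd2a* and *Cdh5*. Against the mean of the other 9, r was 0.883 for *Ly6c1*, 0.824 for *Abcb1a* and *Flt1*, 0.810 for *Pecam1*, 0.707 for *Cldn5*, 0.701 for *Slco1a4*, 0.697 for *Slc2a1*, 0.376 for *Mfsd2a*, 0.283 for *Tek* and 0.145 for *Cdh5*. These points share the depth and the regional marker levels of a library, so the correlations are descriptions. *Gde2*KO library A of 19 months was the lowest point, at a mean of -0.35, and WT library B of 19 months the highest, at 0.22.

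Among 14285 other genes whose mean reached 50 normalized counts, the 10 most like the mean of the members were *Fam160b2* (r = 0.942), *Jakmip1*, *Esam*, *Ghdc*, *Klhl33*, *Secisbp2*, *Ccdc157*, *Reep4*, *Prickle3* and *Bend7* (r = 0.909). *Esam*, an endothelial cell adhesion molecule, had r = 0.931 and rho = 0.972 over the 12 libraries and r = 0.908 without the 2 libraries farthest from the median. Without those 2, r over the 10 genes ran from 0.712 (*Reep4*) to 0.920 (*Klhl33*), with *Fam160b2* at 0.854. What this ranking reflects was not tested. *Esam* was at 340.2, 324 and 504 in WT and 469.9, 459 and 525 in *Gde2*KO libraries at 4 months and at 722, 658 and 452 and 365, 472 and 494 at 19 months.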

How the data were processed

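Polyadenylated RNA of 12 cortex samples was sequenced as paired reads. The authors quantified transcripts of GRCm38 with kallisto and normalized them between libraries with sleuth. The submitters' processing notes also name bcl2fastq 2.17, and Trimmomatic 0.36 and STAR 2.5.2b, which the study used for splicing. The deposited values are signal values, estimated counts per transcript divided by a size factor and TPM scaled likewise, and they are not whole reads (36.0% to 62.9% of genes in a library were whole multiples of 1 read), so no count model was used. A column of the 19-month set gives its genotype but no replicate number, and the letters A, B and C stand in for it here. No column lacked a group (0).

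Normalized counts of 118489 transcripts were summed to 36047 genes, leaving out 1673 transcripts without a gene (0.541% to 0.605% of a library). Genes with at least 5 normalized counts in 47% of libraries were tested on log2(value + 0.5) with limma 3.58.1 (R 4.3.3) with an intensity trend, and p-values were adjusted by Benjamini-Hochberg over all genes tested. A call needed an adjusted p below 0.1 together with a change of over 0.5 on the natural log scale, except that interactions needed the adjusted p alone. Fold changes on this scale understate those of low genes. Ratios of means come from unlogged values. For transcript usage the F test of diffSplice in limma was run on transcripts with a mean of 5 or more, with a call at an adjusted p below 0.1 and a shift of over 10 points of TPM share. Plots were drawn with matplotlib 3.10.9, and tables made with pandas 2.3.3 and numpy 2.4.6 under python 3.11.15. The scripts were tested on simulated data.

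The members and the gene lists were chosen with earlier results of these data known. Besides the members, the genes named are up to 4 called genes of a list in a comparison, those with the smallest p, with *Vegfa*, *Kdr*, *Wnt7a*, *Wnt7b*, *Adgra2*, *Fzd4*, *Plvap*, *Cav1*, *Ocln*, *Abcg2*, *Pdgfrb*, *Abcb1b*, *Ly6c2* and *Gdpd5* in any case, and the 10 genes most like the mean of the members. The study gives 3 animals per genotype for the 19-month RNAseq. For the 4-month RNAseq of dissected cortices it gives n = 3 without saying that these are animals, so a technical part in the spread behind those p-values cannot be told. Positions and transcripts are from GRCm38 (GENCODE), and promoters from RefSeq, which matched 8 of the 10 genes. Alternatives were other pseudocounts, filters, scalings and weights, TPM, a replicate block and leaving out libraries. Those without the WT libraries of high hippocampal markers in the fits over both ages were added after the data were seen.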

Additional observations from a re-analysis of the deposited data

Results flagged for a closer look

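The genotype difference turned from one direction at 4 months to the other at 19 months in 4 of 66 genes named and in 2 of 23 transcripts of the members, with no overlap between WT and *Gde2*KO libraries at either age. Of 18040 genes tested at both ages, 292 (1.62%) did so in their levels. Many of the 66 were named because an age comparison of these same libraries called them, so their share cannot be set against that of all genes. The 2 transcripts are both of *Slc2a1* and their shares are not independent of each other. No count over the transcripts of all genes was made to set beside them.

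*Vegfa* was higher in *Gde2*KO by 0.39 on the log2 scale at 4 months and lower at 19 months (-0.38), an interaction of -0.76 (SE 0.22, unadjusted p = 0.00431, adjusted p = 0.368 by limma). *Dll4* was at 51.9, 67.7 and 83.0 in WT and 111, 155 and 115 in *Gde2*KO libraries at 4 months and at 69.9, 89.8 and 75.7 and 49.8, 63.9 and 48.4 at 19 months, with an interaction of -1.45 (SE 0.34, adjusted p = 0.368 by limma). *Kl*, a choroid plexus gene, had an interaction of 1.97 and *Zbtb20*, a hippocampal gene, one of 1.999, each with an adjusted p of 0.368 by limma. Both were highest at 4 months in WT replicates 1 and 2, *Kl* at 708, 599 and 158 and *Zbtb20* at 16193, 13132 and 4229 in WT replicates 1 to 3. None of these 4 interactions passed the adjusted p.

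The share of the full coding *Slc2a1* transcript (ENSMUST00000030398.9) changed by -8.50 percentage points from WT to *Gde2*KO at 4 months and by 6.58 at 19 months, which differ by 15.1 points. For the transcript annotated for nonsense-mediated decay (ENSMUST00000174372.2) these were 7.99 and -7.60 points, a difference of -15.6. The change of these shares between the ages was not tested.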

How the results depend on the processing

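Of 1040 values of the members under alternatives, 976 kept their direction and their side of the thresholds, 42 turned direction, 14 passed newly and 8 no longer passed. No member was called between genotypes at either age under any alternative except in transcript usage. In log2 units, quantile normalization gave -0.12 for *Pecam1* at 4 months, 0.013 and 0.065 for the interactions of *Cdh5* and *Tek*, and 0.019, 0.082 and 0.045 for *Slco1a4*, *Abcb1a* and *Tek* with age in *Gde2*KO. Median-ratio scaling gave -0.054 for *Pecam1* at 4 months and 0.056 for *Abcb1a* with age in *Gde2*KO. TPM gave -0.032 for *Pecam1* at 4 months, 0.046 for *Slco1a4* at 19 months, 0.0050 for the interaction of *Tek*, and 0.049 for *Slco1a4* with age in *Gde2*KO. *Anpep*, a gene of the pericyte list and not a member, was at -0.014 with TPM with age in *Gde2*KO. Its call there was lost in 9 of 23 alternatives. Array weights, whose estimation stopped before convergence, gave 0.33 for *Slc2a1* at 4 months, -0.10 for *Cdh5* at 19 months, 0.11 for the interaction of *Tek*, and 0.11, 0.14, -0.0043 and 0.067 for *Slco1a4*, *Abcb1a*, *Cdh5* and *Tek* with age in *Gde2*KO. Without both WT libraries of high hippocampal markers, *Flt1* was at -0.13 and *Pecam1* at -0.23 at 4 months, and the interactions of *Slc2a1*, *Pecam1* and *Cdh5* at 0.12, 0.049 and 0.069. Without both 19-month libraries of low depth, *Mfsd2a* was at 0.17 and *Cdh5* at -0.022 at 19 months and *Abcb1a* at 0.050 with age in *Gde2*KO. Leaving out 1 library at a time gave ranges of -0.039 to 0.18 for *Pecam1* and -0.14 to 0.17 for *Slc2a1* at 4 months, -0.24 to 0.00073 for *Abcb1a*, -0.41 to 0.043 for *Mfsd2a* and -0.019 to 0.081 for *Tek* at 19 months, -0.088 to 0.37 for the interaction of *Mfsd2a*, -0.032 to 0.18 for *Cldn5* and -0.077 to 0.0031 for *Tek* with age in WT, and -0.19 to 0.050 for *Abcb1a* with age in *Gde2*KO.

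The number of members called in the interaction was 8 with array weights and 0 to 2 on leaving out 1 library. With age in WT it was 0 without both libraries of high hippocampal markers and 1 to 3 on leaving out 1 library. With age in *Gde2*KO it was 0 under quantile normalization, 0 under median-ratio scaling, 0 with array weights, 0 without both libraries of low depth and 0 to 1 on leaving out 1 library. In transcript usage at 4 months it was 0 to 1, the call being *Slc2a1* without *Gde2*KO replicate 2. Over all genes, the 24 calls at 4 months were 12 without a filter on low values, 12 without an intensity trend, 2934 with array weights, 14 without the hippocampal libraries and 5 to 1510 on leaving out 1 library. The 18 calls at 19 months were 7 without a trend, 77 with array weights, 34 without both libraries of low depth and 9 to 45 on leaving out 1. The 9 interactions were 5 with TPM, 8744 with array weights and 6 to 2029, the 2565 calls with age in WT were 1692 at a mean of 50, 4240 with array weights, 517 without the hippocampal libraries and 1525 to 3096, and the 2224 in *Gde2*KO were 1096 to 2851. The causes were not tested.

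The replicate numbers of 4 months did not pair the libraries, since deviations of same-numbered libraries correlated at 0.0596, 0.00709 and -0.0477. With a replicate block, 0 members and 21 genes were called at 4 months. The 19-month columns carry no numbers. A read was worth 8.29 normalized counts in the shallowest library, so low genes such as *Sele* and *Ly6c2* were measured there to about 1 read. With 3 libraries a group, differences of the size of *Slco1a4* at 4 months could not be told from the spread between libraries after adjustment.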
